A study of Mus musculus with 14 samples.

Results

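Of the 599 miRNA probes on a mouse panel, 4 are described here because their miRNAs are known from lymphoid cells: mmu-miR-155, mmu-miR-150, mmu-miR-181a and mmu-miR-29a. They were taken by name, with earlier results of these data known. Each was counted in 14 samples of miRNA from extracellular vesicles (EVs), the membrane particles that cells shed into blood, pelleted from plasma by differential centrifugation. Female C57BL/6J mice, an inbred strain, were used as young adults. A group of 4 sham samples came from uninjured mice, and 5 samples each came from mice that received whole-body ionizing radiation (WBIR) at 2 Gy or at 9 Gy from a cesium source, with plasma taken 3 days later. The labels do not say whether a sample is 1 mouse or a pool of mice, so every p-value below measures the spread between these samples. EVs in plasma come from many cell types, and a lower share of lymphoid EVs and less of a miRNA per EV cannot be told apart.

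A mature miRNA guides an Argonaute protein to mRNAs that pair with its seed, bases 2 to 8 from the 5′ end, and the mRNA is then repressed. miR-155 is cut from the transcript of the host gene Mir155hg, is induced when lymphocytes and macrophages are activated, and represses inhibitors of cytokine signaling such as Socs1. miR-150 is abundant in resting mature B and T cells and represses the transcription factor Myb. miR-181a is high in developing thymocytes, where it tunes T cell receptor signaling, and miR-29a restrains interferon gamma in T cells and is also made by many non-lymphoid cells. Lymphocytes are among the most radiosensitive cells of the body, and the question these samples address is whether plasma EV miRNAs differ after each dose of WBIR.

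The mature sequences of the members are shown because the seed decides which other probes belong with them. The panel names carry no arm, and the arm shown is the one for which the older name without an arm stood. In RefSeq (GRCm38.p6, the mouse genome build) 3 of the 4 members were matched, and the seed is in capitals.
miR-155-5p: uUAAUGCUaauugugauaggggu
miR-181a-5p: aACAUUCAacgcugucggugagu
miR-29a-3p: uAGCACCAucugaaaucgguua
The miR-155 sequence lies at chr16:84714143-84714165 on the plus strand, within Mir155hg. The miR-181a sequence is encoded at 2 sites, chr1:137966468-137966490 and chr2:38852741-38852763, both on the plus strand. The gene entry at the second overlaps those of Nr6a1 and Nr6a1os. The miR-29a sequence lies at chr6:31062673-31062694 on the minus strand, in a RefSeq entry that no other gene entry overlaps and that is 275 bases from the entry of Mir29b-1. Of 1679 mature mouse sequences in the table, miR-155-5p was the only 1 with its seed. The seed of miR-181a was carried by 4 and that of miR-29a by 3, which are the seed families below.

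The counts were judged against the 8 negative control probes of the panel, which have no target in a sample and give the background of the assay. One of them, NEG_C, stood apart with a mean of 52.9 ± 12.7 counts (SD, n = 14), while the means of the other 7 ran from 5.29 to 10 counts. Adding 2 SD to the mean of all 8 controls gave each sample a limit, which ranged from 24.2 to 52.4 counts in sham, from 27.7 to 50.9 after 2 Gy and from 45.4 to 65.4 after 9 Gy. Without NEG_C the limits were 11.3 to 18.1, 10.4 to 14.8 and 10.3 to 17.6 counts. The median negative control lay between 5.0 and 9.5 counts in every sample, and the median miRNA count over the whole panel was 7. The total miRNA count was 4781 to 6926 in sham, 8019 to 10455 after 2 Gy and 11518 to 20150 after 9 Gy.

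Over the 56 values of the members, 1 exceeded the limit from all 8 controls, and it was miR-155 in a 9 Gy sample. Over all miRNA probes 1.41% of the values did so. Without NEG_C, 7 of the 56 member values were above the limit, where 15.3% of the values of all probes were. By group these were 0 of 16 values in sham, 2 of 20 after 2 Gy and 5 of 20 after 9 Gy, beside 9.93%, 15.8% and 19.1% for all probes. Above the highest negative control was 1 member value, again the same one, beside 1.13% for all probes. Above the median negative control were 24, beside 44.0% for all probes. At each of the 4 limits the members' share was therefore near that of the whole panel. The lymphoid label of the members rests on what is known of them, and no value here ties their counts to lymphoid cells.

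**Figure D1:**
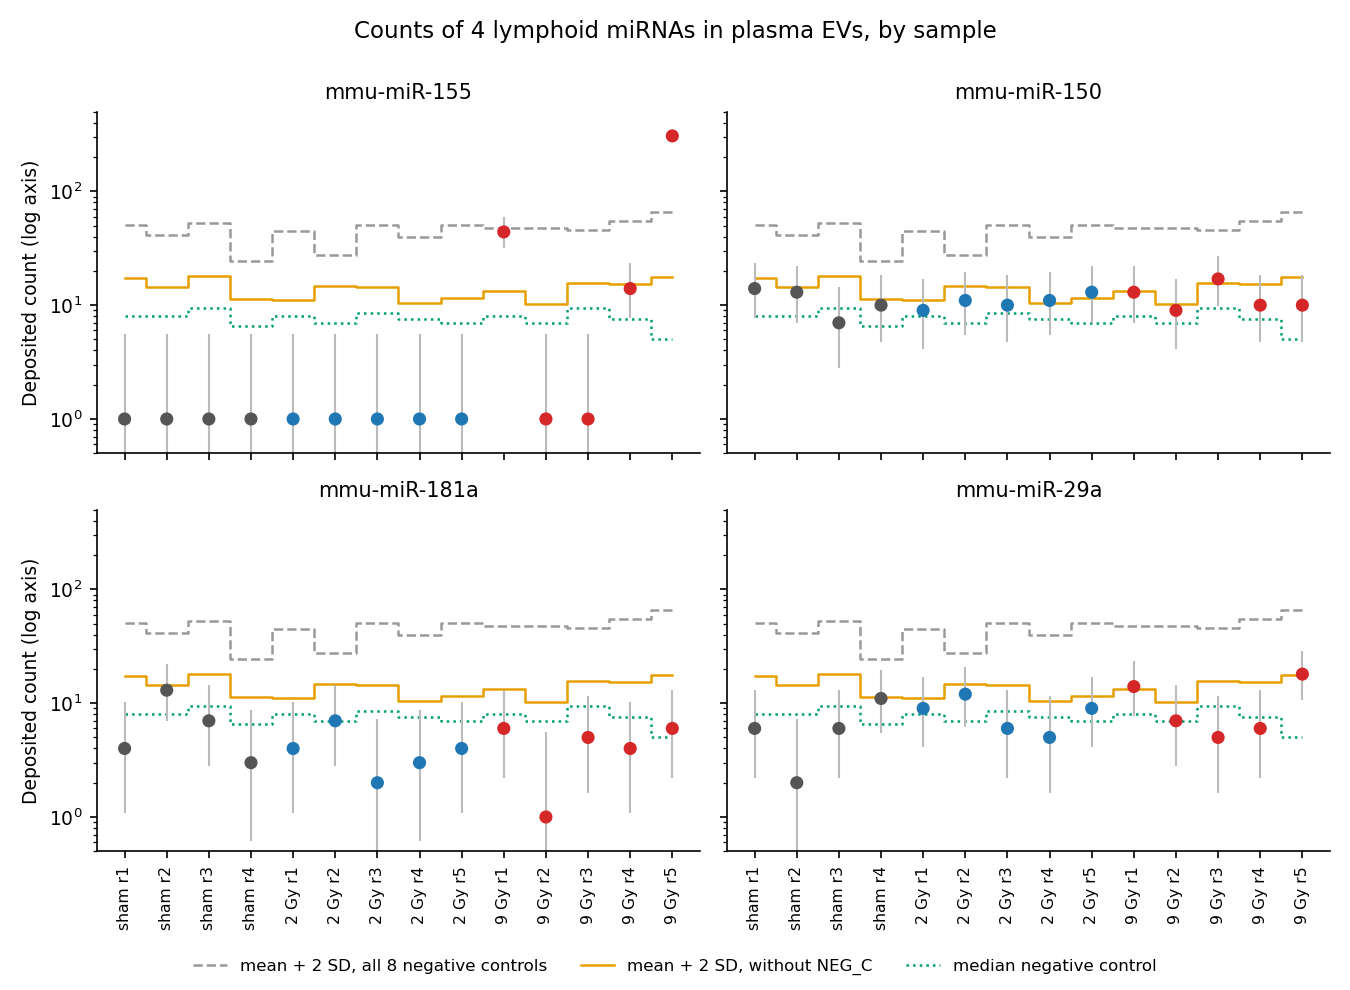
Deposited counts of the 4 lymphoid miRNAs (y axis, log scale) in each of the 14 samples (x axis, r1 to r5 are replicates), with sham in grey, 2 Gy in blue and 9 Gy in red. Vertical bars are exact 95% Poisson intervals of single counts and the stepped lines are 3 background limits from the negative controls. miR-155 sits at 1 in 11 samples and at 44, 14 and 307 in 9 Gy replicates 1, 4 and 5, while the other miRNAs stay between 1 and 18.

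miR-155 was clearly above background in 1 sample, 9 Gy replicate 5, and by looser limits in up to 2 more of 9 Gy. Its count was 1 in all 4 sham samples and 1 in all 5 samples after 2 Gy. After 9 Gy it was 44, 1, 1, 14 and 307 in replicates 1 to 5. The 9 Gy samples thus split into 2 samples at the same count as sham and 3 above it, and the ranges of the 3 groups overlapped at a count of 1. In order of their means the groups were sham and 2 Gy, both at 1.00 with no spread, and then 9 Gy at 73.4 ± 132 (SD, n = 5), where the SD exceeded the mean.

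The 3 samples differed in how far they rose above background. In replicate 5 the count of 307 (exact 95% Poisson interval 274 to 343, which covers counting error only) was above the limit of 65.4 and above NEG_C at 76. It made up 1.52% of the miRNA counts of that sample, and 99.3% of the miRNA probes had a lower count. In replicate 1 the count of 44 (interval 32.0 to 59.1) lay under the limit of 47.5 from all 8 controls and above that of 13.4 without NEG_C, with 98.0% of the miRNA probes lower. In replicate 4 the count of 14 (interval 7.65 to 23.5) lay under the limit of 15.3 without NEG_C and above the median negative control of 7.5. Against the 4 limits, miR-155 was therefore above background in 1, 2, 1 and 3 samples, all of them 9 Gy.

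A count of 1 was the smallest value in the deposited table, which held no 0. It was listed for 362 of the 8764 values, and in 9 of the 11 samples where miR-155 stood at 1 it lay below the lowest negative control. Whether a count of 0 was written as 1 is not stated, so the 1s may be a floor and their lack of spread need not be a measurement. Taken as a true count, 1 has an exact 95% interval of 0.0253 to 5.57, and in either case a low level of miR-155 in sham and 2 Gy EVs was not detectable at this depth. Only 5 miRNA probes were at 1 in at least 11 samples, namely let-7a, miR-34c and miR-543 in all 14 and miR-155 and miR-700 in 11. Of these 5, miR-155 alone exceeded 2 in any sample. The highest count over the median count was 307 for miR-155, 5 for the next probe and 1.78 for the median probe. For miR-155 this ratio is taken over the smallest value of the table and rests on 9 Gy replicate 5, without which its highest count was 44.

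**Figure D2:**
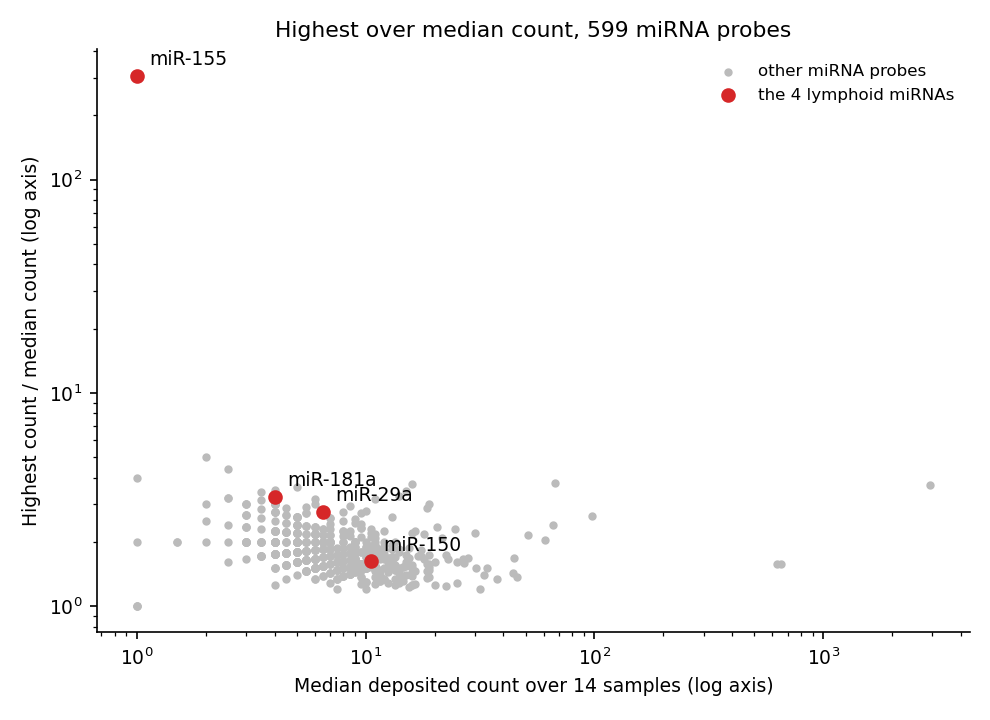
Highest count divided by median count (y axis, log scale) against the median count over 14 samples (x axis, log scale) for each of 599 miRNA probes, with the 4 lymphoid miRNAs in red. miR-155 is at 307, set by 1 sample over a median of 1, and the next probe is at 5.

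Tests across the panel were made with edgeR's quasi-likelihood test over 176 miRNA probes with a mean of at least 10 counts. miR-155 entered this test only through its 9 Gy samples, since its mean in the other groups was 1.00, and without 9 Gy replicate 5 its mean was under that minimum. A call for it at 9 Gy is therefore given as a description and supports nothing beyond the counts above. For 9 Gy compared to sham its adjusted p was 0.0474 by edgeR, with higher counts in 3 of 5 samples. In that comparison 17.0% of the tested probes were called, and of the 4 members 2 were tested and 1, miR-155, was called. No fold change is given because the sham samples stood at the smallest value of the table. The exact permutation test of the same 2 groups, two-sided on log2 scaled counts, gave p = 0.151, where the smallest p this design allows is 0.00794. The call was lost on leaving out any 1 of the 4 sham samples (adjusted p by edgeR 0.112 to 0.119), any 1 of the 5 samples of 2 Gy (0.0613 to 0.0650), 9 Gy replicate 1 (0.0600) or 9 Gy replicate 5 (0.0606), with the same probes tested each time. It held without 9 Gy replicate 2, 3 or 4 (0.0187, 0.0198 and 0.0387).

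For 2 Gy compared to sham the counts of miR-155 were equal in all 9 samples, so the test could not call it (edgeR adjusted p = 0.996) and its result there says nothing. In that comparison 14.8% of the tested probes were called, and miR-150, the other tested member, was called by none of edgeR, DESeq2 and limma-voom. For 9 Gy compared to 2 Gy miR-155 did not pass (edgeR adjusted p = 0.125, exact permutation p = 0.167). In that comparison 0% of the probes were called, 20 had an unadjusted p under 0.05, and DESeq2 called miR-155, with the same limit.

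Of the technical controls, those for ligation moved with irradiation and those for hybridisation did not pass. The ligation controls, spiked RNAs that report how well the tag is joined to RNA in a sample, were 7.88-fold higher after 2 Gy and 8.98-fold higher after 9 Gy than in sham (exact permutation p = 0.00794 at both doses, which is as low as this design goes). They did not pass between 9 Gy and 2 Gy (1.14-fold, exact permutation p = 0.294). The hybridisation controls were at 0.926-fold and 0.989-fold of sham after 2 Gy and 9 Gy (exact permutation p = 0.333 and 0.810). Among 9 Gy samples the geometric mean of the ligation controls was 2810, 2231, 2409, 2337 and 3463 counts in replicates 1 to 5, so the sample with the most miR-155 also had the highest ligation controls and, at 20150, the highest total. In 2 Gy replicate 1 the ligation controls were at 3121 and miR-155 at 1. With the ligation controls as a covariate the edgeR adjusted p of miR-155 for 9 Gy compared to sham was 0.753. Dose and ligation cannot be told apart between sham and irradiated samples.

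The nearest tested probes to miR-155, by the root mean square difference of centered log2 scaled counts over 14 samples, were let-7d (1.65) and miR-367 (1.71), beside a median of 2.11 over the tested probes. The let-7d counts were 2 to 6 in sham and 12 to 35 after 9 Gy, with no overlap. The miR-367 counts were 4 to 17 in sham and 15 to 46 after 9 Gy, so even the nearest profiles lacked the range of miR-155.

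miR-150, the marker of resting lymphocytes, was counted in the range of the negative controls in every group, where a fall could not have been seen. Its counts were 14, 13, 7 and 10 in sham, 9, 11, 10, 11 and 13 after 2 Gy, and 13, 9, 17, 10 and 10 after 9 Gy. The groups overlapped throughout, with means of 11 ± 3.16 (SD, n = 4), 10.8 ± 1.48 (n = 5) and 11.8 ± 3.27 (n = 5). The total miRNA count was 2.33-fold higher in 9 Gy than in sham samples, so counts were also compared after scaling by TMM, edgeR's factor for sample composition and depth. Scaled means were 11.2 ± 2.84, 12.1 ± 1.96 and 10.6 ± 3.64.

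The log2 fold change of miR-150 was 0.11 ± 0.30 (SE) for 2 Gy and -0.09 ± 0.29 for 9 Gy compared to sham, and -0.20 ± 0.28 for 9 Gy compared to 2 Gy (edgeR adjusted p = 0.903, 0.910 and 0.882). Exact permutation gave p = 0.603, 0.746 and 0.349. No sample reached the limit from all 8 controls. Without NEG_C, 3 samples exceeded it, with 11 against 10.4 in 2 Gy replicate 4, 13 against 11.6 in 2 Gy replicate 5 and 17 against 15.6 in 9 Gy replicate 3. The largest of these, 17, had an exact 95% interval of 9.90 to 27.2, which spans the limit. Over the 14 samples miR-150 was above the median negative control in 13, all but sham replicate 3. Single negative controls were above that median in 2 to 14 samples, NEG_C in all 14, NEG_E in 11, NEG_F in 9 and the other 5 in 2 to 7. The profile nearest to that of miR-150 was mcmv-miR-M95-1-3p (0.23, beside a median of 0.52), a probe for a mouse cytomegalovirus miRNA, followed by let-7f (0.30).

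miR-181a, which acts in thymocytes, was at background in each group. Its counts were 4, 13, 7 and 3 in sham, 4, 7, 2, 3 and 4 after 2 Gy, and 6, 1, 5, 4 and 6 after 9 Gy. The sham mean of 6.75 ± 4.50 (SD, n = 4) was raised by replicate 2, and the groups overlapped, with 4.00 ± 1.87 (n = 5) after 2 Gy and 4.40 ± 2.07 (n = 5) after 9 Gy. No sample was above the limit with or without NEG_C, and 2 were above the median negative control, sham replicate 2 and 9 Gy replicate 5. Its mean of 4.93 was under the minimum for the test across probes. The difference of mean log2 scaled counts was -0.52 for 2 Gy and -0.83 for 9 Gy compared to sham, and -0.31 for 9 Gy compared to 2 Gy (exact permutation p = 0.365, 0.325 and 0.667, unadjusted). Its nearest profiles were miR-1957 (0.53) and miR-1967 (0.56), beside a median of 0.78.

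miR-29a, too, was at or near background in each group. Its counts were 6, 2, 6 and 11 in sham, 9, 12, 6, 5 and 9 after 2 Gy, and 14, 7, 5, 6 and 18 after 9 Gy. Means were 6.25 ± 3.69 (SD, n = 4), 8.20 ± 2.77 (n = 5) and 10 ± 5.70 (n = 5), and the groups overlapped. Without NEG_C, 2 samples were just over the limit, 9 Gy replicate 1 at 14 against 13.4 and replicate 5 at 18 against 17.6. The interval of the count of 18 was 10.7 to 28.4. With all 8 controls no sample was above.

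Its highest counts before scaling were in 9 Gy replicates 5 and 1, the samples with the most miR-155, but scaled counts were 14.6 in each of 9 Gy replicate 1, 2 Gy replicate 2 and sham replicate 4, and 13.8 in 9 Gy replicate 5. The scaled groups overlapped, with means of 6.91 ± 5.42 in sham, 9.18 ± 3.48 after 2 Gy and 8.84 ± 4.95 after 9 Gy. Its differences of mean log2 scaled counts were 0.68, 0.52 and -0.16 in the same order of comparisons (exact permutation p = 0.294, 0.556 and 0.746, unadjusted). miR-29a too was under the minimum, with a mean of 8.29. In all, 6 such permutation tests were run on the 2 members under the minimum and 0 had a p under 0.05. Its nearest profiles were miR-466k (0.56) and miR-720 (0.58), beside a median of 0.80.

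The sequences of the miR-29 and miR-181 relatives are shown because they share bases 2 to 8, and so the seed, with the members and differ further along.
miR-29b-3p: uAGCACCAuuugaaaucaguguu
miR-29c-3p: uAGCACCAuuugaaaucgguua
miR-181b-5p: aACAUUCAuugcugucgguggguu
miR-181c-5p: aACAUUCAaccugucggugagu
miR-181d-5p: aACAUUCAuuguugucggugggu
Counting from 1 at the 5′ end, miR-29c-3p differs from miR-29a-3p by C10U alone. miR-29b-3p differs from it by C10U, G18A, U21G and A22U. miR-181b-5p differs from miR-181a-5p by A9U, C10U and A21G over the shared length, and miR-181d-5p by A9U, C10U, C12U and A21G. The panel reads miR-181b and miR-181d with a single probe. Whether probes of relatives this alike read each other's miRNA was not tested.

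**Figure D3:**
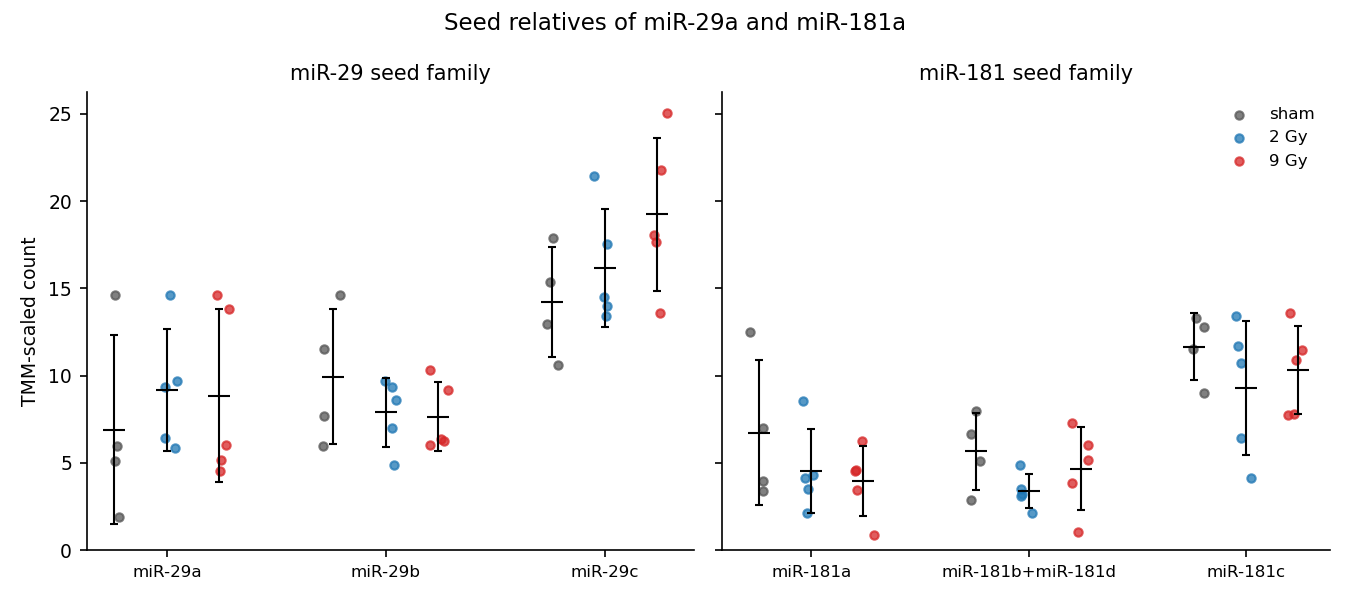
Counts scaled by TMM (y axis) of the probes that share the seed of miR-29a (left) or miR-181a (right), with points for samples (sham grey, 2 Gy blue, 9 Gy red), wide ticks for group means and bars for 1 SD (n = 4, 5 and 5). The groups overlap for every probe, and 3 of the 5 values of miR-29c after 9 Gy lie above its highest sham value of 17.9.

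In the miR-29 family, miR-29c exceeded the limit without NEG_C in most samples, but no sample was above the limit from all 8 controls or above the highest control. Its counts were 21, 16, 13 and 8 in sham, 14, 11, 20, 15 and 13 after 2 Gy, and 13, 29, 24, 21 and 23 after 9 Gy. The limit without NEG_C was exceeded in 10 of 14 samples, 2 of sham, 4 of 2 Gy and 4 of 9 Gy. Of the 5 samples after 9 Gy, 4 were at or above the highest sham count before scaling. On the scaled counts 3 were above the highest sham value of 17.9, and replicates 1 and 5 were not. The log2 fold change was 0.16 ± 0.26 (SE) for 2 Gy and 0.41 ± 0.25 for 9 Gy compared to sham (edgeR adjusted p = 0.897 and 0.342), so neither passed. miR-29b stayed under the limit in all samples, with means of 9.50 ± 2.65, 7.20 ± 2.17 and 8.80 ± 2.95 (SD, n = 4, 5 and 5). In 9 Gy replicate 1 miR-29a was at 14 and miR-29c at 13, its lowest 9 Gy count.

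In the miR-181 family no probe was above the limit without NEG_C in any sample. miR-181c had means of 11.5 ± 2.65 in sham, 8.20 ± 3.03 after 2 Gy and 11.6 ± 2.61 after 9 Gy (SD, n = 4, 5 and 5), with log2 fold changes of -0.34 ± 0.32 (SE) and -0.18 ± 0.30 (edgeR adjusted p = 0.684 and 0.813). The shared probe of miR-181b and miR-181d had means of 5.50 ± 2.08, 3.00 ± 0.707 and 5.40 ± 2.70 and was above the median negative control in no sample.

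Other miRNAs rich in lymphocytes were read from a list of 10, all of them on the panel and 6 tested. At each dose 0 rose and 1 fell compared to sham, a count near the 14.8% and 17.0% called over all tested probes, and 0 passed between the doses. Over all tested probes 23 rose and 3 fell after 2 Gy, and 28 rose and 2 fell after 9 Gy. The median log2 fold change of the 6 was -0.23 for 2 Gy and -0.47 for 9 Gy compared to sham, beside 0.05 and 0.01 over all 176 tested probes. The 1 that fell was miR-142-5p, a miRNA of blood cells of all lineages, with 844 to 1029 counts in sham, 479 to 644 after 2 Gy and 510 to 755 after 9 Gy. Its sham range did not overlap that of either dose, and the log2 fold change was -0.63 ± 0.09 (SE) and -0.77 ± 0.09 (edgeR adjusted p = 3.35e-08 and 8.34e-11). With the ligation controls as a covariate it did not pass, at -0.10 and -0.21 (edgeR adjusted p = 0.914 and 0.850). Nor did it at 9 Gy when scaled to the hybridisation controls, at -0.54 (edgeR adjusted p = 0.0563). The other arm on the list, miR-142-3p, was at 3 to 11 counts and over the limit without NEG_C in no sample. It was under the minimum for the test, so the fall was read from miR-142-5p only.

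The other tested probes of that list did not pass at either dose. They were miR-146a, which restrains inflammatory signaling, and 4 probes of the miR-17-92 cluster and its paralogs, which acts in lymphocyte development. The probe shared by miR-106a and miR-17 was nearest to the threshold, with -0.72 ± 0.26 for 9 Gy compared to sham (edgeR adjusted p = 0.0536). In the other direction, miR-146a was at 0.56 ± 0.24 for 2 Gy and 0.18 ± 0.24 for 9 Gy (edgeR adjusted p = 0.211 and 0.504 unadjusted). miR-150, the member most tied to lymphocytes, cannot be set against miR-142-5p, since its counts of 7 to 17 lay in the range of the negative controls, where a fall could not have been seen.

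**Figure D4:**
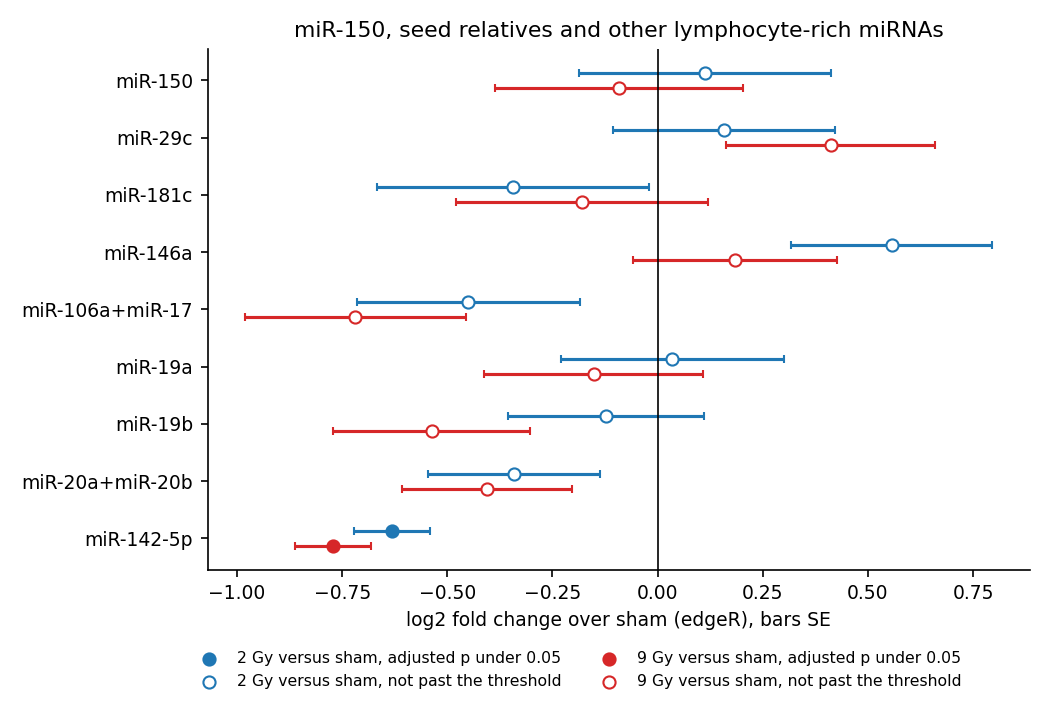
Log2 fold change compared to sham (x axis) by edgeR for miR-150, the tested seed relatives and the tested lymphocyte-rich miRNAs, with blue for 2 Gy, red for 9 Gy, bars for 1 SE and filled points for an adjusted p under 0.05. Only miR-142-5p has filled points, at -0.63 and -0.77.

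Markers of other sources of plasma RNA were checked beside these values. The 4 red cell probes, which include miR-451, summed to 43 to 99 counts in sham, 45 to 350 after 2 Gy and 49 to 219 after 9 Gy, and 1 of 3 tested passed after 2 Gy (miR-16, log2 fold change 1.81 ± 0.40, edgeR adjusted p = 0.00459), beside 14.8% of all tested probes. That call held in 22 of 23 alternatives and was lost with the ligation controls as a covariate (adjusted p = 0.914), while its log2 fold change was 1.38 or more in all 23. After 9 Gy 0 of the 3 passed, with miR-16 at 1.17 ± 0.40 (edgeR adjusted p = 0.0619), and over 23 alternatives it was higher in all 23 and passed in 9. In 9 Gy replicates 1 to 5 miR-451 was at 100, 138, 32, 17 and 63, and the sample with the most miR-155 was not the one with the most miR-451. The 3 platelet probes summed to 12 to 21, 13 to 32 and 20 to 37 counts before scaling in the 3 groups, with miR-126-3p at 1 to 11 over all samples. Of the 14 samples, miR-126-3p exceeded the limit without NEG_C in 1, miR-126-5p in 0 and miR-223 in 5. One of these 3 platelet probes, miR-223, is also the myeloid marker and was at 6 to 22. The hepatocyte marker, miR-122, was at 1 to 6 and over that limit in no sample. The part of all these markers in the member counts was not tested.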

How the data were processed

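EV RNA was run by the authors on the NanoString nCounter mouse miRNA panel, which joins a tag to each miRNA by ligation, hybridises it to a colored barcode and counts single barcodes. The deposited values are whole-number counts for 626 probes, 599 of them for miRNAs, with control probes present and no scaling or background subtraction found in them. The authors used nSolver for their own normalization, which was not used here.

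The groups were those of the labels. Counts were tested with edgeR 4.0.16 (R 4.3.3) in 1 quasi-likelihood fit of all 14 samples, with TMM factors over 599 probes, a minimum mean of 10 counts (176 probes) and Benjamini-Hochberg adjustment at 0.05. Members under the minimum had a two-sided exact permutation test. DESeq2 1.42.0 and limma 3.58.1 (voom) were alternatives. The fit was tested on simulated data. Background limits came from 8 negative controls per sample. The miRNAs named were the members, their seed families, listed markers and the 2 nearest profiles of each member. Members and lists were chosen with earlier results of these data known. By chi-square over 626 probes, controls included, no 2 samples of a group agreed within counting noise (26 of 26 pairs). Over miRNA probes alone 0 of 6 sham pairs differed. Nor did 2 Gy replicates 2 and 4 (chi-square p = 0.662) or 4 and 5 (chi-square p = 0.323). Whether the sham samples share a pool of mice is not stated. Replicate numbers were not treated as pairs, and 1 of 13 same-numbered pairs had a correlation of deviations over 0.1. Most tested probes had low counts, where counting noise can hide a shared factor, so this check could not exclude pairing. Sequences came from RefSeq (GRCm38.p6).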

Additional observations from a re-analysis of the deposited data

Results flagged for a closer look

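miR-155 in 9 Gy replicate 5 was flagged as an outlying sample on the scaled counts. Its count of 307 was far from the other 9 Gy counts of 44, 14, 1 and 1. On the counts scaled by TMM, where replicate 5 was at 235 and the next sample at 46.0, the gap between them was 0.807 of the whole range, above Dixon's 95% critical value for 5 samples. In all, 22 groups of samples over 8 probes were checked in this way, and no other group was flagged. For normally spread values chance flags about 5% of groups, so this flag is near what chance gives. The check used scaled counts without a log, where counts of 1 were the smallest values of the table. It was not made on the log2 scale, so the flag holds for the linear scale only. Without 9 Gy replicate 5 the mean of miR-155 was under the minimum of 10 counts for the test. With the probe kept in, the edgeR adjusted p for 9 Gy compared to sham was then 0.0606.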

How the results depend on the processing

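For 9 Gy compared to sham, the count of members called was 1, and 0 with no filter on low counts, with only the groups compared, with the ligation controls as a covariate, with limma-voom and by exact permutation (adjusted p of miR-155 0.143, 0.146, 0.753, 0.854 and an unadjusted 0.151). It stayed at 1 with DESeq2, with DESeq2 size factors in edgeR and with the replicate block (adjusted p of miR-155 0.000325, 0.0476 and 3.79e-08). It also did when scaled to the 100 highest miRNAs or to the hybridisation controls (edgeR adjusted p 0.0372 and 0.0347). In each of these miR-155 entered the test only through its 9 Gy samples. Leaving out single samples gave 0 to 1 calls. The fitted direction of miR-155 turned with the ligation covariate at 9 Gy, and at 2 Gy with that covariate (0.369), with the replicate block (0.475) and when scaled to the 100 highest miRNAs (0.961). At 2 Gy all counts of miR-155 equalled 1, so that direction comes from the scaling or model and not from miR-155. For 9 Gy compared to 2 Gy the count of members called was 0, and 1 with the replicate block (miR-155, adjusted p = 4.07e-19) and with DESeq2 (0.00206), calls of a probe that entered the test only through its 9 Gy samples. Whether the replicate numbers pair samples is not stated, and the check of same-numbered samples could not exclude it. The cause of these changes was not tested. miR-150 passed under no alternative, exact permutation included, and its direction turned at 2 Gy when scaled to the 100 highest miRNAs (0.425), at 9 Gy with the hybridisation controls (0.896) and the ligation covariate (0.943), and between the doses with the hybridisation controls (0.963). miR-181a at 9 Gy compared to sham had an exact permutation p = 0.0476 when scaled to the 100 highest miRNAs, a scaling that moved the median of all tested probes to -0.48 there and to -0.37 at 2 Gy. For miR-29a the direction between the doses turned with the hybridisation controls (exact permutation p = 0.889), which moved the median to 0.27. Directions also turned without sham replicate 3 for miR-150 at 2 Gy (0.985) and without 9 Gy replicate 5 at 9 Gy (0.982), and between the doses without 9 Gy replicate 2 for miR-181a (exact permutation p = 0.667) and without 2 Gy replicate 2 or 9 Gy replicate 3 for miR-29a (exact permutation p = 0.952 and 0.976). Leaving out single samples, adjusted p values at 2 Gy, 9 Gy and between the doses were 0.973 to 0.998, 0.0187 to 0.119 and 0.0708 to 0.313 for miR-155 and 0.865 to 0.985, 0.700 to 0.999 and 0.679 to 0.955 for miR-150. Exact permutation p values were 0.250 to 0.875, 0.232 to 0.732 and 0.460 to 0.976 for miR-181a and 0.0536 to 0.732, 0.196 to 0.875 and 0.381 to 0.984 for miR-29a. Samples above background were 1 for miR-155, 0 for miR-150, 0 for miR-181a and 0 for miR-29a with all 8 controls. They were 2, 3, 0 and 2 without NEG_C, and 3, 13, 2 and 6 against the median control. miR-150, miR-181a and miR-29a rest on 1 to 18 counts a sample, where counting error alone is wide.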
